A study of Sus scrofa domesticus with 4 samples.

Results

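Cytosolic heat shock proteins and the co-chaperone DNAJB1 were followed in pig uterine muscle (myometrium) cultured with or without orexin B. Orexin B is a neuropeptide ligand of the orexin receptors. The list held 10 genes, and a probe counted as a member when its RefSeq mRNA accession belonged to one of them. Of the 10 genes, 8 had at least 1 such probe, among 3029 genes matched in the whole series. HSPA4 and CRYAB matched no probe and were not analysed here. The 8 genes were DNAJB1, HSPA8, HSPA1L, HSPH1, HSP90AA1, HSP90AB1, HSPD1 and HSPB1, with 32 probes in all, of which 31 were tested. The list was put together with results of these arrays known, because DNAJB1 had been lower with orexin B on all 4 arrays. Ratios of orexin B over untreated are therefore described for every member, with no test.

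The slices came from 4 mature gilts (Large White x Polish Landrace, aged 7 to 8 months and weighing 120 to 130 kg) on days 15 to 16 of gestation. Slices from the middle of the uterine horns were preincubated for 2 h and then cultured for 24 h in culture medium with 10 nM orexin B or with no addition. Pregnancy, preincubation and medium were shared by the treated and the untreated slices. Cultures were set up in duplicate in 4 separate experiments. How the duplicates entered each RNA sample is not given in the sources used here. Each of the 4 two-colour Agilent arrays carried treated and untreated RNA together. Orexin B RNA was in Cy5 (red) on arrays 1 and 3 and in Cy3 (green) on arrays 2 and 4, per the dye fields of the labels. Array 1 was hybridised on a slide of its own and the others together on a second slide.

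Heat shock proteins are molecular chaperones, which bind unfolded or newly made proteins and help them fold or hold them until they can. HSP70 proteins such as HSPA8 work in a cycle driven by ATP, in which a J-domain protein such as DNAJB1 delivers the client and speeds ATP hydrolysis, and HSPH1 (HSP110) helps exchange the nucleotide. HSP90 proteins act later on selected clients such as steroid receptors and kinases. Small heat shock proteins such as HSPB1 hold unfolded proteins without ATP and are abundant in smooth muscle. Many of these genes have a basal level that rises under stress through heat shock factors, which also drive DNAJB1 and the inducible HSP70 genes. HSPD1, although listed with the cytosolic proteins, is the chaperonin HSP60 of the mitochondrial matrix.

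Of 43603 probes on the array, 19881 were bright enough to test. No probe passed an adjusted p of 0.05 for orexin B in limma's moderated test (0% of those tested). Without adjustment, 1534 probes (7.72%) reached a p under 0.05, and 727 did without replicate 4. An ordinary one-sample test gave 0 adjusted and 1195 unadjusted. The share of probes well above background ran from 48.7% to 54.3% in the treated channel and from 37.6% to 58.2% in the untreated channel. All 10 measured smooth muscle markers, of 14 listed, were well above background in untreated tissue on every array. In these slices, fewer cells of a type and less RNA per cell cannot be told apart. The number of arrays limits the precision.

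Among the 8 measured genes, DNAJB1 had the lowest mean log2 ratio of orexin B over untreated and HSP90AB1 the highest. The gene value is the mean of its tested probes on each array. The means ran from -0.42 for DNAJB1 to 0.39 for HSP90AB1, with 3 genes above 0 and 5 below. Their median was -0.06, against 0.02 over all 1979 measured genes. Every gap between neighbours in the order was smaller than the larger of their SDs. DNAJB1 and HSPA1L were below 0 on all 4 arrays, as were 6.59% of all genes, and HSP90AB1 was above 0 on all 4, as were 9.73% of all genes. Of the 28 tested member probes with a value on every array, 2 were below 0 on all 4 (7.14% of all probes) and 6 were above 0 on all 4 (9% of all probes). Because the list was chosen on this contrast, and several probes share a transcript, nothing is read from these counts.

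These signs depended on how the arrays were normalized. With each array only centred on its median, the median of all tested probes was 0.52 on array 1, -0.52 on array 2, 0.34 on array 3 and -0.29 on array 4. These medians were above 0 where orexin B was in Cy5 and below 0 where it was in Cy3. With the same signs as the medians, DNAJB1 and HSP90AB1 were then each above 0 on arrays 1 and 3 and below 0 on arrays 2 and 4. The means of both genes kept their sign (-0.51 and 0.27). HSPA1L had 1 array above 0 and 3 below, with a mean of -0.12.

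**Figure D1:**
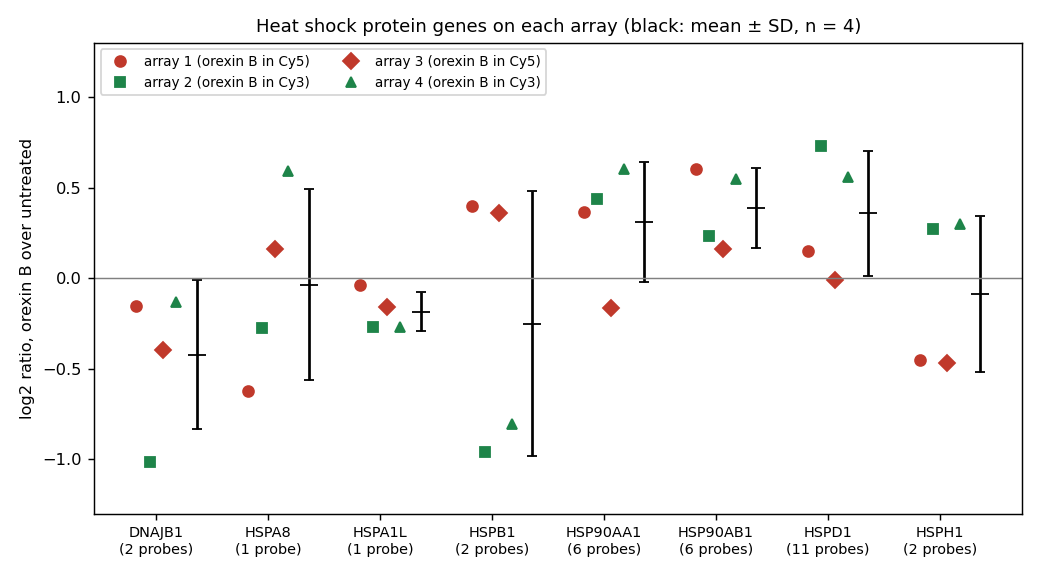
Log2 ratio of orexin B over untreated (vertical axis) for the 8 measured genes, each the mean of its tested probes, with 1 point per array, coloured by the dye of the orexin B RNA. Black bars are the mean ± SD over 4 arrays; HSPB1 and HSPH1 split by dye colour in opposite ways, while DNAJB1 lies below 0 on every array.

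DNAJB1, the J-domain partner of HSP70, was measured by 2 probes of the same transcript (NM_001244430), and they differed. The brighter probe, A_72_P203192, gave normalized log2 levels of 14.01, 15.20, 14.48 and 13.10 in untreated tissue on arrays 1 to 4. With orexin B its levels were 13.54, 13.79, 13.64 and 12.78. The treated level was lower on each array, by most on array 2 and by least on array 4. Its log2 ratios were -0.47, -1.42, -0.84 and -0.32, a mean of -0.76 ± 0.49 (SD, n = 4), or 1.69-fold lower. These values belong to the contrast on which the list was chosen and are given as a description.

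The second DNAJB1 probe, A_72_P204112, did not show the same ratio. Its untreated levels were 11.01, 12.34, 11.41 and 10.62, and its levels with orexin B were 11.17, 11.73, 11.45 and 10.68. Only array 2 was lower, and the other arrays were level or slightly higher. Its log2 ratios were 0.16, -0.61, 0.05 and 0.06, a mean of -0.09 ± 0.35 (SD, n = 4), and without replicate 2 the mean was 0.09. The second probe lay above the first by 0.63, 0.81, 0.89 and 0.38, a mean of 0.68 ± 0.23 (SD, n = 4). Among the 977 genes measured by several tested probes, the median distance between a gene's highest and lowest probe means was 0.13. A distance of at least that of DNAJB1 was found in 1.74% of them, and in 0.630% of the 476 genes with exactly 2 tested probes. The distance comes from the contrast on which DNAJB1 was chosen, so its place among these genes is a description only.

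Averaged over its probes, DNAJB1 had log2 ratios of -0.15, -1.01, -0.40 and -0.13 and a mean of -0.42 ± 0.41 (SD, n = 4). Without replicate 2 the mean was -0.23, and on the 3 arrays of the shared slide it was -0.51. With Agilent's own processed signals the mean was -0.40, and array 1 stood at 0.02. DNAJB1 was thus below 0 on every array under the loess setting, but on 3 of 4 arrays with the processed signals.

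**Figure D2:**
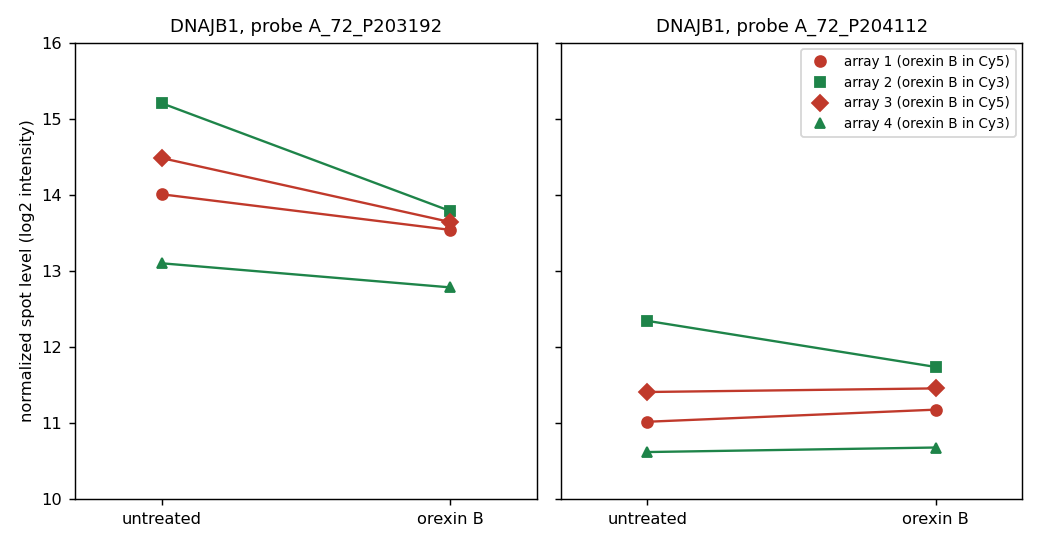
Normalized log2 spot level of the 2 DNAJB1 probes (1 panel each) in untreated tissue and with orexin B, with 1 line per array. The lines of A_72_P203192 slope down on all 4 arrays and that of A_72_P204112 clearly so only on array 2, while both probes order the arrays in the same way, array 2 highest and array 4 lowest.

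DNAJB1 also varied between the arrays. In untreated tissue both probes ranked array 2 highest, then array 3, array 1 and array 4, and with orexin B they kept that order. The untreated levels spanned 2.11 log2 units for the brighter probe and 1.73 for the other. Over all tested probes the median span in untreated tissue was 0.65, and 1.81% and 3.64% of probes spanned at least as much as these. With orexin B the spans were 1.00 and 1.06, against a median of 0.52 over all probes. Of all probes, 16.9% and 14.8% spanned at least as much with orexin B. For the brighter probe the ratio was lowest where the untreated level was highest. The untreated level is part of the ratio, so this is not an independent relation. The labels do not tie arrays to gilts, and differences between gilts, experiments, dyes and hybridisations cannot be told apart.

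HSPA8, the constitutive cytosolic HSP70 that DNAJB1 serves, showed no common direction. Its 1 probe (NM_001243907) had untreated levels of 16.77, 16.72, 16.10 and 16.03 and levels with orexin B of 16.15, 16.44, 16.26 and 16.62. Its log2 ratios were -0.62, -0.27, 0.16 and 0.59, below 0 on arrays 1 and 2 and above 0 on arrays 3 and 4. The mean was -0.04 ± 0.53 (SD, n = 4), and leaving out 1 array moved it between -0.24 and 0.16.

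HSPA1L, an HSP70 best known from the testis, was close to background. Its 1 probe (NM_001123128) had untreated levels of 8.70, 8.05, 8.12 and 8.45. Untreated tissue was well above background on 4 of 4 arrays, and tissue with orexin B on 3, array 2 being the exception. Its log2 ratios were -0.04, -0.27, -0.16 and -0.27, a mean of -0.18 ± 0.11 (SD, n = 4). All 4 were below 0, but close to it. With Agilent's processed signals the mean was -0.55, so its size depended on the processing. HSP70 genes resemble each other closely, and cross-hybridisation between them was not tested.

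HSPH1, the HSP110 that exchanges nucleotide on HSP70, split by array. Its brighter probe, A_72_P035611, had log2 ratios of -0.26, 0.11, -0.23 and 0.21, and its other probe, A_72_P591989, had -0.65, 0.43, -0.71 and 0.39. Both were lower with orexin B on arrays 1 and 3 and higher on arrays 2 and 4. The gene mean was -0.09 ± 0.43 (SD, n = 4). In untreated tissue HSPH1 was lowest on array 4, where it lay 0.79 log2 units below its own mean over the arrays.

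The HSP90 genes had the highest means of the list together with HSPD1, but their probes fell into separate sets. HSP90AA1 (NM_213973), the inducible cytosolic HSP90, had 6 tested probes with means from 0.02 to 0.65. HSP90AB1 (NM_001244433), the constitutive form, had 6 with means from -0.02 to 0.90. The gene values of HSP90AA1 were 0.37, 0.44, -0.17 and 0.60 on arrays 1 to 4, a mean of 0.31 ± 0.33 (SD, n = 4), which was 0.47 without replicate 3. Those of HSP90AB1 were 0.60, 0.23, 0.16 and 0.55, a mean of 0.39 ± 0.22 (SD, n = 4). HSP90AA1 was above 0 on 3 arrays and HSP90AB1 on all 4.

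Of the HSP90AB1 probes, A_72_P424164 and A_72_P763852 carried most of the gene's mean. A_72_P424164 had log2 ratios of 1.20, 1.01, 0.18 and 1.20, a mean of 0.90 ± 0.49 (SD, n = 4). A_72_P763852 had 0.87, 0.98, 0.28 and 1.13, a mean of 0.81 ± 0.37 (SD, n = 4). Both were above 0 on every array and lowest on array 3. The brightest probe, A_72_P051491, had 0.17, -0.19, 0.08 and -0.14 and a mean of -0.02 ± 0.17 (SD, n = 4). It was above 0 on arrays 1 and 3 and below 0 on the other arrays. The other 3 probes had means between 0.03 and 0.26.

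In HSP90AA1, A_72_P700356 and A_72_P634756 stood apart from the rest. A_72_P700356 had log2 ratios of 0.78, 0.99, -0.50 and 1.33, a mean of 0.65 ± 0.80 (SD, n = 4). A_72_P634756 had 0.41, 0.95, -0.31 and 1.31, a mean of 0.59 ± 0.70 (SD, n = 4). Both were highest on array 4 and below 0 on array 3. The pair of HSP90AB1 probes was also lowest on array 3. The brightest probe, A_72_P232852, had 0.16, 0.04, -0.17 and 0.21, and A_72_P683318 had 0.19, 0.0045, -0.11 and 0.01. Neither left the band between -0.17 and 0.21. A_72_P669304 lay between the sets, with 0.48, 0.19, 0.21 and 0.59, and was above 0 on every array. A_72_P525187 had 0.17, -0.12 and 0.18 on arrays 1, 3 and 4.

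These distances within a gene were wide for the array. The highest HSP90AB1 probe exceeded the lowest by 1.03, 1.20, 0.10 and 1.34 on arrays 1 to 4. Of the 977 genes with several tested probes, 0.512% had probe means at least as far apart as HSP90AB1 and 3.28% as far apart as HSP90AA1. Genes with more probes have more chance of a wide distance, and these have 6. The list was also chosen on this contrast, so these shares are a description only. The untreated levels of the high pairs also varied between arrays. A_72_P700356 ran from 14.22 on array 4 to 15.74 on array 3, and A_72_P424164 from 13.50 on array 4 to 14.57 on array 2. A_72_P683318 stayed between 14.85 and 15.01. The position of each probe on its transcript was not analysed here.

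**Figure D3:**
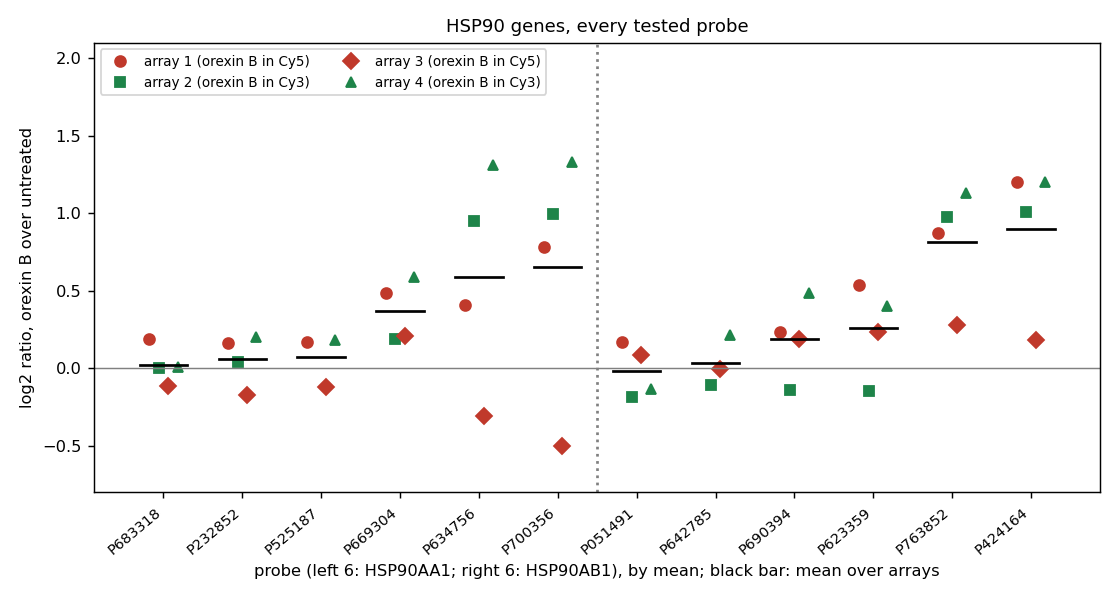
Log2 ratio of orexin B over untreated for the 12 tested probes of HSP90AA1 (left) and HSP90AB1 (right), ordered by mean within each gene, with 1 point per array and a black bar at the mean over arrays. In each gene 2 probes reach means of 0.59 to 0.90, while the lowest probe of each gene stays between -0.19 and 0.19 on every array.

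HSPD1, the mitochondrial HSP60, was the member with most probes, and they lay on the same side of 0. Of its 12 probes (NM_001254716) 11 were tested, and all 11 had a mean log2 ratio above 0, from 0.19 to 0.72 with a median of 0.33. The probe medians on arrays 1 to 4 were 0.24, 0.67, -0.04 and 0.50. On arrays 2 and 4 all 11 probes were above 0, from 0.45 to 1.25 and from 0.32 to 1.18. On array 1 there were 8 above 0, in a range of -0.29 to 0.47, and on array 3 there were 4, in a range of -0.18 to 0.37. The gene values were 0.15, 0.73, -0.0091 and 0.56, a mean of 0.36 ± 0.35 (SD, n = 4), which was 0.23 without replicate 2. The 11 probes share 1 transcript and 4 samples, so they are repeats of a measurement and not replicates of the treatment. HSPE1, the HSP10 lid of this chaperonin, had 4 tested probes and gene values of -0.12, 0.24, 0.04 and 0.35, a mean of 0.13 ± 0.21 (SD, n = 4). It too was highest on arrays 2 and 4.

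**Figure D4:**
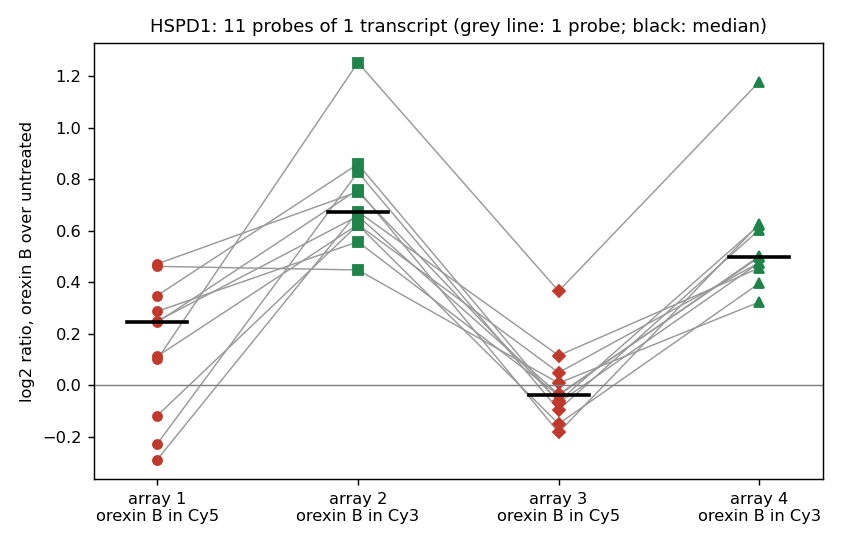
Log2 ratio of orexin B over untreated for the 11 tested HSPD1 probes on each array (grey line, 1 probe; black bar, median over probes). All 11 lie above 0 on arrays 2 and 4, where the orexin B RNA was in Cy3, and they scatter around a median of -0.04 on array 3.

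HSPB1 (HSP27), the small heat shock protein of smooth muscle, had ratios of opposite sign in the dye orientations. Its brighter probe, A_72_P088101 (NM_001007518), had untreated levels of 15.58, 15.21, 15.14 and 15.58 and levels with orexin B of 15.95, 14.25, 15.51 and 14.79. Its log2 ratios were 0.38, -0.96, 0.37 and -0.79, a mean of -0.25 ± 0.73 (SD, n = 4). The level with orexin B was the higher on arrays 1 and 3 and the lower on the other arrays. The mean was -0.46 without replicate 1 or 3, -0.014 without replicate 2 and -0.07 without replicate 4. The other probe, A_72_P679687, had 0.42, 0.34 and -0.81 on arrays 1, 3 and 4, and its spot on array 2 was marked as an outlier and left out. Where both were measured, the probes differed by at most 0.04.

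Smooth muscle, fibroblast and macrophage markers are given first beside HSPB1, and then the other cell lists with a measured gene. Of 14 smooth muscle markers 10 were measured, 9 of them with a mean below 0, and their medians were 0.14, -1.04, 0.21 and -0.999 on arrays 1 to 4. Their summed level (normalized intensity, brightest probe of each gene) ran from 668532 to 1134371 in untreated tissue and from 374329 to 919713 with orexin B. The marker median and HSPB1 were both below 0 on arrays 2 and 4 and above 0 on arrays 1 and 3. Of the 10 markers 6 had these signs on every array, and TPM4 was above 0 on all 4, as were 9.73% of all genes. Fibroblast and stroma markers, 4 of 8 measured, had medians of 0.03, -0.64, 0.04 and -0.66, with these signs on every array in 1 of the 4, COL1A2. All 9 measured macrophage markers, of 11 listed, had a mean above 0, and their medians were 0.58, 0.18, 0.88 and 0.76. Epithelium markers, 3 of 8 measured, had medians of 0.43, -0.30, -1.49 and 0.96. The measured neutrophil markers, S100A8 and S100A12, stood at 2.33 and 0.68 on array 2 and at -2.01 and -0.11 on array 3. Medians for T and NK cell, endothelium and conceptus trophoblast markers lay between -0.03 and 0.34 on every array. The shares of all genes with such sign patterns or such means are not given here, so nothing is read from these counts. The part of these cells' RNA in the HSPB1 values was not tested.

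The difference between the dye orientations was tested for the members other than DNAJB1. DNAJB1 was chosen for ratios of the same sign on all 4 arrays, and so in both orientations, which favours a small difference. In a limma fit with an orexin B term and a dye term, 0 of 26 probes of the other members passed an adjusted p of 0.05 (0% of all 19710 probes fitted; smallest adjusted p among members = 0.233). The 3 tested probes without a value on every array were left out of this fit. At an unadjusted p under 0.05 there were 9 of these probes, 34.6% of the 26, against 12.6% of all probes. The 9 came from 4 genes, and 5 of them were HSPD1 probes that share a transcript. The dye term, orexin B in Cy5 minus orexin B in Cy3, was 1.25 ± 0.22 (SE) for HSPB1, -1.09 ± 0.21 for HSPH1 (A_72_P591989) and -0.98 ± 0.22 for HSPD1 (A_72_P110291). For HSP90AA1 it was -1.02 ± 0.42 and -1.08 ± 0.31 for the pair of high probes and between -0.13 and 0.03 for the other 3 in the fit. For the high pair of HSP90AB1 it was -0.41 ± 0.36 and -0.48 ± 0.27, and 0 of 5 HSP90AB1 probes reached an unadjusted p under 0.05. Both pairs were picked after their ratios were seen. HSPD1 had a negative dye term for all 11 probes. For DNAJB1 the values were 0.21 and 0.38, given as a description. Over all probes, the adjusted count was 0, but it was 22 without replicate 4 and 1 without replicate 3. Dye and the differences between the pairs of arrays cannot be told apart in this term.

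**Figure D5:**
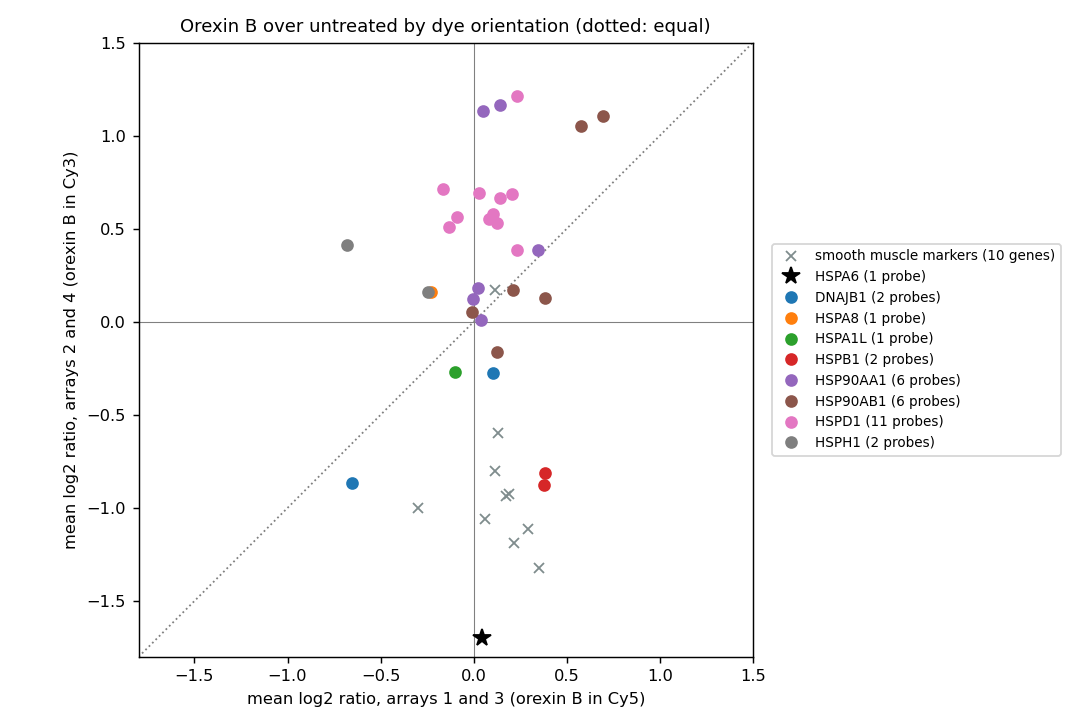
Mean log2 ratio of orexin B over untreated on arrays 1 and 3 (horizontal axis, orexin B in Cy5) against arrays 2 and 4 (vertical axis, orexin B in Cy3) for the 31 tested member probes (circles), the measured smooth muscle markers (crosses) and HSPA6 (star); a probe with a marked spot shows the arrays it has. HSPB1 lies near most of the smooth muscle markers at lower right, HSPD1 and part of the HSP90 probes lie above the dotted line of equal values, and the brighter DNAJB1 probe lies near that line at lower left.

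Other genes of the chaperone network were counted from lists by role, and none had a probe past an adjusted p of 0.05. Of 9 further HSP70 and HSP110 genes 2 were measured. HSPA6, a stress-inducible HSP70, had untreated levels of 12.06, 13.28, 11.60 and 11.23 and levels with orexin B of 12.54, 11.75, 11.21 and 9.36. Its log2 ratios were 0.48, -1.53, -0.39 and -1.86, a mean of -0.83 ± 1.08 (SD, n = 4), and ran from -1.26 without replicate 1 to -0.48 without replicate 4. Array 1 was above 0 and the other arrays below. Its dye term was 1.74 ± 0.33 (SE; limma adjusted p = 0.233). HSP70.2, the inducible pig HSP70 also named HSPA1A or HSPA1B, had gene values of 0.24, -0.93, -0.21 and -0.71, a mean of -0.40 ± 0.52 (SD, n = 4), which was -0.62 without replicate 1 and -0.23 without replicate 2. Its probes again differed: A_72_P088236 had 0.01, -0.98, -0.60 and -1.20, and A_72_P015686 had 0.47, -0.88, 0.18 and -0.22. In untreated tissue HSPA6, HSP70.2 and DNAJB1 were each highest on array 2 and lowest on array 4. The order was not particular to them. HSP90AB1, averaged over 5 probes, was also highest on array 2 (0.64 from its own mean over the arrays) and lowest on array 4 (-0.43). HSPA8, HSPH1 and the mean of 5 HSP90AA1 probes were lowest on array 4 too. Single HSP90 probes did not all share this. The brightest probe of HSP90AA1 (A_72_P232852) and that of HSP90AB1 (A_72_P051491) were lowest on array 1.

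Of 25 other J-domain proteins 2 were measured, both with a mean below 0. DNAJA4 had -0.08, -0.50, -0.04 and -0.40 and was below 0 on all 4 arrays, and DNAJC19, of the mitochondrial import motor, had a mean of -0.17 ± 0.28 (SD, n = 4). Of 24 cofactors of HSP70 and HSP90, 6 were measured, 4 with a mean above 0, and their median was 0.07. CHORDC1, an HSP90 cofactor, had the highest mean, 0.39 ± 0.68 (SD, n = 4), reached 1.23 on array 4 and had a mean of 0.11 without replicate 4. UNC45A, the HSP90 partner that folds myosin, had the lowest, -0.31 ± 0.16 (SD, n = 4). Like DNAJA4, UNC45A was below 0 on all 4 arrays, as were 6.59% of all genes. FKBP4, an immunophilin of steroid receptor complexes, had 0.12 ± 0.22 and TOMM34 -0.06 ± 0.11 (SD, n = 4 each). The shares of all genes with a mean above or below 0 are not given here, so nothing is read from the counts in these lists.

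Of 14 subunits of the CCT chaperonin and prefoldin 4 were measured, with a median of 0.03. TCP1 had 0.12 ± 0.24, PFDN4 0.04 ± 0.24, PFDN6 0.03 ± 0.21 and CCT3 -0.06 ± 0.32 (SD, n = 4 each), and all 4 were highest on array 4. Of 10 mitochondrial chaperones and proteases 2 were measured, HSPE1 and TRAP1, the mitochondrial HSP90, which had -0.07 ± 0.28 (SD, n = 4). Of 10 heat shock factors and regulators 2 were measured. HSBP1, which binds heat shock factor, had 0.43, -0.13, 0.47 and -0.05, above 0 only on arrays 1 and 3, and SIRT1 had a mean of 0.01 ± 0.36 (SD, n = 4). None of the 8 other small heat shock proteins had a matched probe. BAG3, HSF1, HSF2, HSPA9, STIP1, DNAJA1 and DNAJB6 had none either and were not analysed here.

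Among the genes whose 4 array values lay closest to those of DNAJB1, by Euclidean distance over 4 arrays among 1966 genes, were PHYH, METTL9, ALDH5A1 and PLPP2. Their distances were 0.29, 0.30, 0.31 and 0.32 log2 units. PHYH had log2 ratios of -0.33, -1.03, -0.28 and -0.33, and PLPP2 had -0.17, -0.72, -0.44 and -0.26. These 4 genes were each lowest on array 2, and ALDH5A1 was above 0 on array 1. These genes share the 4 arrays with DNAJB1, and likeness over 4 values is a description only.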

How the data were processed

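Per the file headers, the authors scanned 4 two-colour Agilent arrays with Feature Extraction 10.7.3.1. The deposited files hold median spot and background intensity in green and red, processed intensity and, on a log10 scale, the red to green ratio. The deposited series table holds log2 ratios, which matched orexin B over untreated from the processed signals within 0.01 for 100% of probes on every array, with no further centring (column medians -0.27, -0.08, -0.20 and -0.09). Labels' protocols give 825 ng cRNA per dye. Their text names only 1 dye orientation, so the dye fields were used, and arrays 2 and 4 were turned.

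In R 4.3.3 with limma 3.58.1, background was corrected by normexp (offset 50) and arrays normalized by loess, control spots at weight 0. Marked outlier spots (31 to 138 per array) were left out. Channel levels used Aquantile scaling. A probe was tested if well above background on all 4 arrays in either channel, with an unmarked spot on at least 3. No member probe was saturated. Ratios were fitted with lmFit and eBayes, Benjamini-Hochberg over all tested probes, two-sided. P-values measure only the spread between these 4 arrays, with each probe's variance in limma drawn towards that of all tested probes. Accessions matched the Sscrofa11.1 table for 6700 probes, and 36903 stayed unnamed.

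Members and lists were chosen with earlier results of these data known. Named genes were all members, up to 2 at each end of every list, 11 set genes and the 5 most like DNAJB1, of which 1 is not reported here. The fit was checked on simulated ratios. Alternatives covered background, normalization, source, filter, dye term, test, slide, probe choice and each array left out. Figures used Python 3.11.15 and matplotlib 3.10.9.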

Additional observations from a re-analysis of the deposited data

Results flagged for a closer look

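Each gene and probe described was checked for 1 array standing apart from the other 3. Of 57 such checks 3 were positive, and chance gives about 1 in 20. The second DNAJB1 probe, A_72_P204112, stood at -0.61 (log2 ratio) on array 2, while its other values were 0.05 to 0.16. TCP1, a CCT chaperonin subunit, stood at 0.47 on array 4, with its other values from -0.02 to 0.03. PHYH, one of the genes most like DNAJB1, stood at -1.03 on array 2, with its other values from -0.33 to -0.28. It was picked for its likeness to DNAJB1, which was lowest on array 2, so this value was favoured by the choice.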

How the results depend on the processing

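As the mean of its probes or by its brightest probe, DNAJB1 kept a mean below 0 under every alternative run. It ran from -0.76 with its brightest probe alone to -0.23 without replicate 2, and without 1 replicate from -0.52 to -0.23. Its other probe alone, A_72_P204112, had a mean of -0.09, and of 0.09 without replicate 2. DNAJB1 was chosen for this sign. No probe passed the adjusted threshold for orexin B under any alternative (0 without any 1 replicate). The count at an unadjusted p under 0.05 was 2361 with the dye term, 2302 with no filter on dim probes and 177 with median centring, and without 1 replicate it ran from 727 (without replicate 4) to 1922. Its split was 856 higher and 678 lower with loess and 172 and 5 with median centring. Probes past the adjusted threshold for the dye term numbered 9109 with median centring, and from 0 to 22 without 1 replicate, the 22 without replicate 4 and 1 without replicate 3. Of 703 other values of genes and probes under an alternative, 7 moved by more than 1 SD. Many of the 703 could not move, so this share is no measure of stability. The balanced dye term leaves a mean unchanged, as does a filter that keeps the same probes. Genes with 1 probe were counted both as gene and as probe. Among the 7, HSP90AB1 was -0.02 with its brightest probe and HSPA1L was -0.55 with Agilent's processed signals and with the series table. The shared-slide values are those without replicate 1. The analysis is already paired within arrays, because each ratio sets treated against untreated RNA, and no further replicate block applied to the single group of arrays. Signal over background limits HSPA1L, the member not well above background on every array in both channels. A_72_P525187 of HSP90AA1 was 0.40 and A_72_P642785 of HSP90AB1 was -0.47 with median centring. HSPA8 ran from -0.24 to 0.16 and HSPH1 from -0.22 to 0.04 over the alternatives, so neither kept its sign.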

Other observations

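The HSPD1 probe that was not tested, A_72_P670158, had unmarked spots on arrays 1 and 3 only, with log2 ratios of 0.21 and -0.16. These lie within the range of the tested HSPD1 probes on the same arrays.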
